A study of Mus musculus with 18 samples.

Results

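Syndecans and glypicans were followed in RNA from 18 cultures of mouse bone marrow mesenchymal stem cells (MSCs), the stromal cells of flushed marrow that attach to the dish. The genes were the 4 syndecans, Sdc1 to Sdc4, and the 6 glypicans, Gpc1 to Gpc6, and they were taken by their symbols from a table of 27179 genes and not by their values. All 10 were listed, and the 8 whose mean over the libraries reached 10 normalized counts entered the tests. The study asked what aging does to MSCs and what old MSCs gain from soluble factors of young MSCs, and it sequenced young, old and rejuvenated old MSCs with 6 libraries a group. Young MSCs came from mice of 6 weeks and old MSCs from mice of 18 to 24 months, and both were left untreated. For rejuvenated old MSCs, old cells spent 7 days in co-culture with young MSCs across a membrane with pores of 0.4 µm, which soluble factors cross and cells do not. All mice were C57BL6, described as male in the study's methods, with no deletion or transgene named, and all cells were taken at day 7. Cultures at passages 2 to 5 were used. The labels name a growth medium of alpha-MEM with serum and the methods an expansion medium with basic fibroblast growth factor and heparin, and which of them fed the sequenced cells is not given in the sources used here. The labels call the libraries biological replicates, and whether each came from its own mouse is not given in the sources used here. Old MSCs paired with other old MSCs were not analysed here, so the presence of a second cell layer and the age of that layer cannot be told apart.

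Syndecans span the plasma membrane and end in a short cytoplasmic tail that binds PDZ proteins such as syntenin, while glypicans hang on the outer surface by a glycosylphosphatidylinositol (GPI) anchor. Both families carry heparan sulfate chains, whose sulfation pattern sets which growth factors, chemokines and matrix proteins they hold and present to their receptors. In bone marrow, stromal heparan sulfate proteoglycans take part in keeping ligands such as CXCL12 and fibroblast growth factors near the cell surface.

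The libraries held 22936251 to 29559194 reads on genes, with medians of 24296356 for young, 27016557 for old and 28604258.5 for rejuvenated old MSCs. A value is a normalized count, the reads of a gene divided by 1 size factor per library. Young libraries stood apart from the others beyond their label. The 4 Y-linked genes Ddx3y, Kdm5d, Uty and Eif2s3y were at 0 to 2.06 normalized counts in young libraries and at 570 to 2203 in old and 493 to 2355 in rejuvenated old libraries. Xist was low throughout, from 21.2 to 41.2 in young, 1.97 to 14.4 in old and 4.83 to 10.3 in rejuvenated old MSCs. The difference between young and old MSCs therefore holds the presence of Y-linked transcripts as well as age, and these cannot be told apart. Of 12 macrophage markers, 6 including Ptprc, Adgre1 and C1qa never passed 3 reads in a young library, and the list summed to 928 to 1047 normalized counts in young MSCs, to 14950 to 18677 in old MSCs and to 14970 to 18271 in rejuvenated old MSCs. Of 7 adipocyte markers, Adipoq, Plin1, Cfd and Cidec stayed within the same limit, and this list summed to 16692 to 19207, 39040 to 41692 and 43012 to 54495. Most of that sum was Lpl (means 17251, 32968 and 40583), and the means of Adipoq, Plin1 and Cfd were lower in rejuvenated old than old MSCs (Adipoq 760.2 against 1158). Of 12 marrow stromal markers, all had a mean of at least 10 in young MSCs and all but Thy1 in old MSCs, with sums of 170110 to 183130, 365070 to 384730 and 367710 to 411380. Cxcl12 alone went from a mean of 9227 in young to 197370 in old MSCs, while Pdgfra (14051 and 4075), Ly6a (25100 and 6135), Nt5e and Thy1 had the higher means in young MSCs. Of 8 endothelial markers, the sums were 6995 to 7345 in young, 146 to 193 in old and 186 to 556 in rejuvenated old MSCs. In young MSCs this was mostly Cd34 (mean 7006, against 23.1 in old MSCs), while Vwf had the lower mean in young MSCs (51.8 against 127). By flow cytometry the study found neither CD34 nor CD45 on young or old MSCs. Ptprc, which encodes CD45, ran from 162 to 208 normalized counts in old MSCs. Rejuvenated old replicate 1 held Cd34 at 402 and Thy1 at 21.6 normalized counts, while its 5 fellow libraries held 24.2 to 41.9 and 0 to 0.951, and both genes were high in young MSCs (Cd34 from 6787 to 7191, Thy1 from 175 to 227). Gpc2, the member with the highest ratio of young to old MSCs, was at 94.7 in that library and at 89.8 to 105 in the other 5, and without that library the same members were called in the tests of rejuvenated old against old MSCs. Stag3, a neighbour of Gpc2, and Ezr also had higher means in young than in old MSCs, and among rejuvenated old libraries both were highest in replicate 1. Stag3 was at 95.8 there and at 20.3 to 49.5 in the other 5, and Ezr at 1117 and at 840 to 931.

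**Figure D1:**
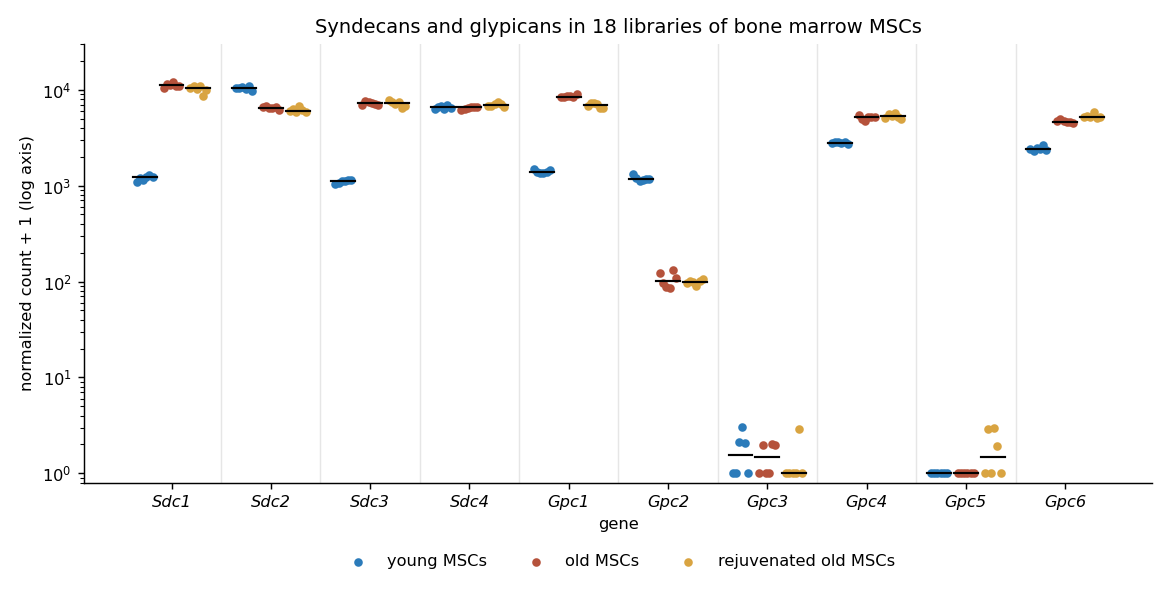
Normalized counts + 1 on a log axis for the 10 syndecan and glypican genes, with 1 point per library (6 young, 6 old, 6 rejuvenated old) and a bar at each group's median. Sdc1, Sdc3, Gpc1, Gpc4 and Gpc6 lay lower in all 6 young libraries than in the others, Sdc2 and Gpc2 lay higher, and Gpc3 and Gpc5 lay at 0 to 2.02 normalized counts.

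Promoters are shown for 4 of the genes with a window, Sdc1 and Sdc3 (lower in young MSCs), Gpc2 (higher) and, for contrast, Sdc4, whose groups overlapped. Gpc1, also far lower in young than in old MSCs (log2 difference -2.60), had no window. The windows run from 250 bases before to 50 after a RefSeq start of the gene on its strand (GRCm38.p6). That start need not be the outermost one in GENCODE or RefSeq, and for Gpc2 it lies inside the RefSeq extent, which ends at 138280026. Capitals mark matches on either strand to 6 motifs. These were the GC box (GGGCGG), the CCAAT box, the core of the TATA box (searched as TATAA), the E-box (CACGTG) and the core of the hypoxia response element (ACGTG, which every E-box also holds), and the kappaB-like motif was GGGANTTCC. They lie at chr12:8771146-8771445, + strand (Sdc1), chr4:130792287-130792586, + strand (Sdc3), chr2:164443139-164443438, - strand (Sdc4) and chr5:138279888-138280187, - strand (Gpc2).
Sdc1: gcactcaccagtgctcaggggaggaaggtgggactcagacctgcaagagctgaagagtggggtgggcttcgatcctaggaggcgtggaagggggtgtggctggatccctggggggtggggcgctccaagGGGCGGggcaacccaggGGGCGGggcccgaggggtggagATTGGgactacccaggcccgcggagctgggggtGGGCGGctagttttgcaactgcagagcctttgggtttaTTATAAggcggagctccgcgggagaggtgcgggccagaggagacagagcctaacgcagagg
Sdc3: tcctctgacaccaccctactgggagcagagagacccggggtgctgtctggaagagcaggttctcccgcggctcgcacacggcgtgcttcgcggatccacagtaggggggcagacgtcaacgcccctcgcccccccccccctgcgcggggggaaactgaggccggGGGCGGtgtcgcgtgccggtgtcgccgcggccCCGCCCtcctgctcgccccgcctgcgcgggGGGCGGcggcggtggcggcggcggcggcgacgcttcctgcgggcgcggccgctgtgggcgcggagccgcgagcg
Sdc4: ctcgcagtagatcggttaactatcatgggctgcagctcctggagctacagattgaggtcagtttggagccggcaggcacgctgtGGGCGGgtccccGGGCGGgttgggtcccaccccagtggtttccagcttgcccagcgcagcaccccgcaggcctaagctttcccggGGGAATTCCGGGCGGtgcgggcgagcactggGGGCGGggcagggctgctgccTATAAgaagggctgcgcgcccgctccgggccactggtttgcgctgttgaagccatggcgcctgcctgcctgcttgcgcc
Gpc2: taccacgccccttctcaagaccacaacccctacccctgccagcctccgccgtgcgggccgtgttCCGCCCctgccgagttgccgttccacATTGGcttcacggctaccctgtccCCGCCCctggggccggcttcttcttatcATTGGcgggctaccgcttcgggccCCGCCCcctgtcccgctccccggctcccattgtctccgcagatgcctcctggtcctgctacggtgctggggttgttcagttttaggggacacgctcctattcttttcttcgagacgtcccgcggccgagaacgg

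Windows were given for 7 of the 10 genes (Sdc1, Sdc3, Sdc4, Gpc2, Gpc3, Gpc4 and Gpc5). A GC box was found in all 7, with 4 matches in Sdc4 and Gpc3, 3 in Sdc1, Sdc3 and Gpc2 and 1 in Gpc4 and Gpc5, and in 35.7% of all 32851 RefSeq promoter windows. CCAAT was matched 2 times in Gpc2 and 1 time each in Sdc1 and Gpc3 (37.4% of windows). TATAA was matched in Sdc1, where 2 matches on opposite strands overlap, Sdc4 and Gpc5 (24.9% of windows). The kappaB-like letters were found in Sdc4, directly before a GC box, and in 1.68% of all windows. The E-box (7.15%) and the hypoxia core (19.6%) were in none of these 7 windows. The 7 windows held 54.7% (Gpc5) to 77.7% (Sdc3) G and C, against a median of 52.7% over all windows, and 14 (Sdc1) to 44 (Sdc3) CpG sites, against a median of 7.

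Sdc1 encodes syndecan-1 (CD138), known from plasma cells and epithelia (chr12:8771323-8793715, + strand, GENCODE M21 on GRCm38). It ran from 1095 to 1289 normalized counts in young MSCs (median 1221), from 10513 to 12118 in old MSCs (median 11107) and from 8633 to 11015 in rejuvenated old MSCs (median 10323). The young libraries lay far below all others, while old and rejuvenated old libraries overlapped. Sdc1 was 9.31-fold lower in young than in old MSCs (log2 difference -3.22 ± 0.051 (SE), adjusted p = 3.52e-24, limma). Folds and percentages are ratios of the group means of normalized counts, while log2 differences and their tests are on the log2(normalized count + 1) scale. In bulk RNA fewer cells of a type and less RNA per cell cannot be told apart. None of 8 B and plasma cell markers reached a mean of 10 in any group, and their summed level was at most 32.1 normalized counts in a library. Of 6 epithelial markers, the sum was at most 22.3. The macrophage markers summed to 928 to 1047 in young and to 14950 to 18677 in old MSCs, and their part in the difference of Sdc1 was not tested. Between rejuvenated old and old MSCs, Sdc1 dropped by 8.77% (log2 difference -0.14 ± 0.051 (SE), adjusted p = 0.0363, limma). This call was lost with no filter on low values (adjusted p = 0.0555) and with a single prior variance (adjusted p = 0.0635). It was also lost without old replicate 2, 3 or 4 (adjusted p = 0.0638, 0.0589 and 0.0954) and without rejuvenated old replicate 5 or 6 (adjusted p = 0.101 and 0.0585).

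Sdc3 encodes syndecan-3, or N-syndecan, best known from the nervous system (chr4:130792537-130826319, + strand). It ran from 1046 to 1153 normalized counts in young MSCs (median 1113), from 6856 to 7648 in old MSCs (median 7219.6) and from 6407 to 7831 in rejuvenated old MSCs (median 7265). As with Sdc1, all young libraries lay below all others. Sdc3 was 6.52-fold lower in young than in old MSCs (log2 difference -2.70 ± 0.042 (SE), adjusted p = 3.05e-24, limma). Rejuvenated old and old MSCs overlapped throughout, with a log2 difference of -0.016 (95% confidence interval -0.10 to 0.071, adjusted p = 0.792).

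Sdc2 encodes syndecan-2, also called fibroglycan, the syndecan of mesenchymal cells (chr15:32920723-33034935, + strand), and it went the other way. It ran from 9766 to 10977 normalized counts in young MSCs (median 10363), from 6088 to 6781 in old MSCs (median 6508) and from 5875 to 6789 in rejuvenated old MSCs (median 6053). Every young library lay above every old and rejuvenated old library. The level was 1.60-fold higher in young than in old MSCs (log2 difference 0.68 ± 0.037 (SE), adjusted p = 4.28e-14, limma). Rejuvenated old minus old MSCs gave a difference of -0.078 (95% confidence interval -0.15 to -0.0018) and did not pass the test (adjusted p = 0.0949). It passed with all libraries scaled to the same total (adjusted p = 0.0275), without old replicate 6 (adjusted p = 0.0438) or without rejuvenated old replicate 4 (adjusted p = 0.0152), and Sdc2 was lower in rejuvenated old MSCs in each of these.

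Sdc4 encodes syndecan-4, the widespread syndecan of focal adhesions (chr2:164424247-164443887, - strand). It ran from 6264 to 6876 normalized counts in young MSCs (median 6549), from 6173 to 6668 in old MSCs (median 6528) and from 6593 to 7522 in rejuvenated old MSCs (median 6947). The 3 groups overlapped. Young and old MSCs differed by 0.017 (95% confidence interval -0.053 to 0.088, adjusted p = 0.636), so that any difference was small against those of the other 7 genes tested. The test was passed when libraries were scaled to the same total (log2 difference 0.092, adjusted p = 0.0122) or by quantiles (0.11, adjusted p = 0.00181). Rejuvenated old MSCs had 8.12% more Sdc4 than old MSCs (log2 difference 0.11 ± 0.034 (SE), adjusted p = 0.0112, limma). Against young MSCs the difference was -0.095 for young minus rejuvenated old (adjusted p = 0.0136), and that call was lost under the same scalings (adjusted p = 0.904 and 0.893), with libraries scaled to the same 75th percentile (adjusted p = 0.097) and with chromosome shifts removed (adjusted p = 0.13).

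Gpc1 encodes glypican-1, a widely expressed glypican that binds fibroblast growth factors (chr1:92831645-92860779, + strand). It ran from 1352 to 1489.8 normalized counts in young MSCs (median 1396), from 8304 to 8928 in old MSCs (median 8468) and from 6484 to 7299 in rejuvenated old MSCs (median 6887). The 3 groups were separate, in the order young, rejuvenated old, old. Gpc1 was 6.05-fold lower in young than in old MSCs (log2 difference -2.60 ± 0.034 (SE), adjusted p = 1.86e-25, limma). From old to rejuvenated old MSCs it fell by 19.3% (log2 difference -0.31 ± 0.034 (SE), adjusted p = 2.12e-07, limma), and this call held without each of the 18 libraries in turn (log2 difference -0.33 to -0.29). The gene Ankmy1 overlaps Gpc1 on the opposite strand and had a mean of at most 13.0 normalized counts in any group.

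Gpc2 encodes glypican-2, or cerebroglycan, known from developing neurons (chr5:138273655-138280005, - strand). It ran from 1108 to 1322 normalized counts in young MSCs (median 1168), from 84.5 to 130.5 in old MSCs (median 101) and from 89.8 to 105 in rejuvenated old MSCs (median 98.3). All young libraries lay at 1108 or above, and old and rejuvenated old libraries overlapped. Gpc2 was 11.4-fold higher in young than in old MSCs (log2 difference 3.52 ± 0.091 (SE), adjusted p = 3.27e-20, limma). Rejuvenated old and old MSCs differed by -0.072 (95% confidence interval -0.26 to 0.12, adjusted p = 0.563). Stag3, a cohesin subunit gene of meiosis chosen after its values were seen, starts on the other strand 234 bases from the start of Gpc2, so that the genes stand head to head. Stag3 ran from 1346 to 1659.6 normalized counts in young MSCs (median 1501), from 32.3 to 61.6 in old MSCs (median 48.3) and from 20.3 to 95.8 in rejuvenated old MSCs (median 47.2). The value of 95.8 was that of rejuvenated old replicate 1, the library with the high Cd34 and Thy1. The distance of 234 bases is between the GENCODE models. The RefSeq gene table has a wider extent for Stag3, chr5:138272514-138312397, which takes in that of Gpc2 (chr5:138273657-138280026), and in GENCODE the predicted gene Gm43720 overlaps Gpc2 on the same strand. The libraries were made with a stranded kit, but the strand setting of the counting is not given in the sources used here, so how reads were shared among these genes was not tested.

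Gpc4 (chrX:52053021-52165252, - strand) and Gpc6 (chr14:116925315-117976544, + strand) encode 2 closely related glypicans, the latter tied to limb growth. Gpc4 ran from 2718 to 2883 normalized counts in young MSCs (median 2814), from 4769 to 5485 in old MSCs (median 5147) and from 5008 to 5732 in rejuvenated old MSCs (median 5281). Gpc6 ran from 2316 to 2668 normalized counts in young MSCs (median 2408), from 4524 to 4904 in old MSCs (median 4658) and from 5102 to 5862 in rejuvenated old MSCs (median 5208). Young libraries lay below all others for both genes. Gpc4 was 1.82-fold lower in young than in old MSCs (log2 difference -0.86 ± 0.035 (SE), adjusted p = 1.98e-16, limma), and Gpc6 was 1.92-fold lower (log2 difference -0.94 ± 0.037 (SE), adjusted p = 8.67e-17, limma). In rejuvenated old MSCs, Gpc6 lay above all old libraries, 13.4% higher in the mean (log2 difference 0.18 ± 0.037 (SE), adjusted p = 0.000437, limma). Its highest library was rejuvenated old replicate 4 at 5862, and without it the difference was 0.15 (adjusted p = 0.00111). Gpc4 differed between rejuvenated old and old MSCs by 0.057 (95% confidence interval -0.017 to 0.13, adjusted p = 0.214).

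Gpc3, the glypican mutated in an overgrowth syndrome (chrX:52272426-52613950, - strand), was barely read. The young libraries held 4 reads of it in 145658547, the old libraries 3 in 161275498 and the rejuvenated old libraries 2 in 169631687. Gpc5 (chr14:115092215-116525179, + strand) had 0 reads in young and old libraries, which allows up to 0.0206 and 0.0186 CPM by counting error, and 5 reads in rejuvenated old libraries. Neither gene was tested, and no difference was detectable at this depth. Gpc3 and Gpc4 are neighbours on the X chromosome, 107173 bases apart on the same strand with no coding gene between them, and Gpc5 and Gpc6 are neighbours on chromosome 14, 400135 bases apart on the same strand. In each of these pairs 1 gene was read at high depth in every library and the other had at most 2 reads in a library.

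**Figure D2:**
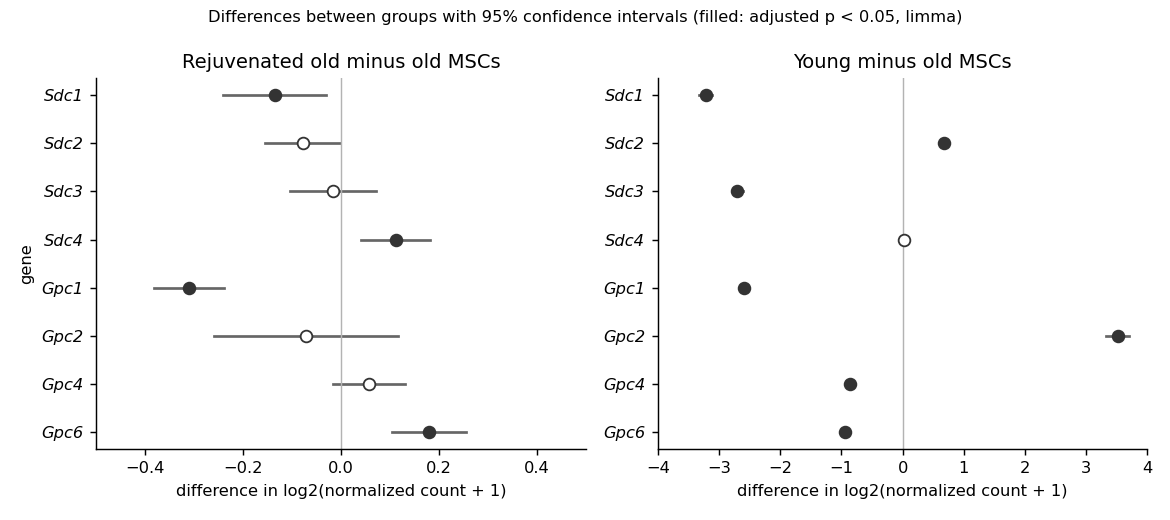
Differences in log2(normalized count + 1) with 95% confidence intervals for the 8 genes tested, for rejuvenated old minus old MSCs (left, axis from -0.5 to 0.5) and young minus old MSCs (right, axis from -4 to 4), with filled points for an adjusted p under 0.05 by limma. On the left Gpc1 reached -0.31 and Gpc6 0.18, and on the right Sdc1 reached -3.22 and Gpc2 3.52.

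Of the 8 genes tested, 7 differed between young and old MSCs (adjusted p under 0.05, limma), where 85.7% of the 14353 genes tested did. The 2 higher in young MSCs were Sdc2 and Gpc2, and the 5 lower were Sdc1, Sdc3, Gpc1, Gpc4 and Gpc6, against 41.6% and 44.1% of all genes. The groups did not overlap for 7 of the 8, and for 73.9% of all genes, so that both counts stood near the background. An absolute log2 difference of at least 2 was reached by 4, namely Sdc1, Sdc3, Gpc1 and Gpc2, against 15.4% of all genes, and no other gene of the 8 reached 1, as 31.9% of all genes did. The median log2 difference was -0.90 over the 8 genes and -0.022 over all genes tested. Against rejuvenated old MSCs, young MSCs differed in all 8 genes (85.6% of all genes), with 2 higher and 6 lower (41.5% and 44.1% of all genes). The groups were separate for 7 (70.5% of all genes), and Sdc1, Sdc3, Gpc1, Gpc2 and Gpc6 passed a log2 difference of 1 (31% of all genes). Between rejuvenated old and old MSCs, 4 of the 8 differed, where 41.6% of all genes did. Sdc4 and Gpc6 were higher and Sdc1 and Gpc1 lower (21% and 20.6% of all genes), and the groups were separate for Gpc1 and Gpc6 (22% of all genes). The largest of these differences was that of Gpc1, and none of the 8 reached 1 on the log2 scale (2.34% of all genes). Both comparisons use the same old libraries. Set side by side, Sdc1 and Gpc1 were lower than in old MSCs in both, Gpc6 was higher in rejuvenated old and lower in young MSCs, and Sdc4 was higher in rejuvenated old MSCs while its difference between young and old MSCs did not pass the test. The summed adipocyte markers, mostly Lpl, did not overlap between old and rejuvenated old libraries either, though Adipoq, Plin1 and Cfd did not share the direction of the sum. Of 7 osteoblast markers, Dmp1 (means 117 in old and 30.6 in rejuvenated old MSCs), Ibsp, Bglap and Phex were lower in rejuvenated old MSCs without overlap. Runx2 had a lower mean there too, and Sp7 and Alpl had higher means. The part of the adipocyte and osteoblast markers in the results was not tested. Nor was that of the macrophage, endothelial, adipocyte and osteoblast markers in the differences between young and old MSCs.

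The genes of some chromosomes differed together between young and old MSCs. Relative to the median of autosomal genes the log2 differences of chromosome 1, with Gpc1, had a median of -0.66 and those of chromosome 12, with Sdc1, of -0.43. The chromosomes of the other 6 genes tested lay between 0.23 (Sdc2) and -0.067 (Sdc4). Chromosomes 16 and 7, which hold none of the genes tested, had medians of -0.72 and 0.64. With each chromosome's own shift taken out, the difference of Gpc1 became -1.94 and that of Sdc1 -2.78. Sdc3 and Gpc2 were then at -2.62 and 3.47, Sdc2 at 0.45, Gpc4 at -1.05 and Gpc6 at -1.16, and the same 7 genes were called.

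Per length, the makeup of both families differed between young and old MSCs. Levels are normalized counts per kilobase (kb) of the longest RefSeq-matched transcript, given as means ± SD over 6 libraries. In young MSCs the syndecans stood in the order Sdc2 (2951 ± 122), Sdc4 (2661 ± 100.3), Sdc1 (380.4 ± 22.2) and Sdc3 (223 ± 8.40). In old MSCs the order was Sdc1 (3541 ± 176), Sdc4 (2629 ± 88.0), Sdc2 (1841 ± 67.5) and Sdc3 (1453 ± 64.4). Rejuvenated old MSCs kept the order of old MSCs, with Sdc1 at 3230.5 ± 272 and Sdc4 at 2843 ± 137. Neighbours whose libraries overlapped were Sdc2 and Sdc4 in young and Sdc1 and Sdc4 in rejuvenated old MSCs, and their order is not resolved. As shares of the summed syndecan level, Sdc2 had 47.5% ± 0.905 in young and 19.5% ± 0.761 in old MSCs, and Sdc1 had 6.12% ± 0.350 and 37.4% ± 0.887. In rejuvenated old MSCs these shares were 18.9% ± 0.801 and 34.9% ± 1.70. The syndecans summed to 6216 per kb in young, to 9464 in old and to 9257 in rejuvenated old MSCs.

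Among the glypicans, Gpc4 led in young MSCs at 1059 ± 21.8 per kb, followed by Gpc6 (698 ± 35.2), Gpc2 (458 ± 28.7) and Gpc1 (338 ± 13.2). In old MSCs Gpc1 (2043 ± 52.8) and Gpc4 (1931 ± 94.2) overlapped at the top, above Gpc6 (1340.3 ± 41.0) and Gpc2 (40.2 ± 7.28). In rejuvenated old MSCs Gpc4 (2008 ± 101) lay above Gpc1 (1649 ± 87.0) in every library, and Gpc1 overlapped with Gpc6 (1519 ± 80.9). Gpc1 thus made up 13.2% ± 0.516 of the glypican level in young MSCs, 38.2% ± 0.991 of it in old MSCs and 31.6% ± 0.962 in rejuvenated old MSCs. Gpc2 made up 17.9% ± 0.984 in young and less in the other groups (0.750% ± 0.131 and 0.726% ± 0.0639). The glypicans summed to 2554 per kb in young, to 5355 in old and to 5214 in rejuvenated old MSCs. Measured per kb of all exons joined, the order of 2 leading genes changed, with Gpc4 (44.5% of the glypican level) above Gpc1 (38.1%) in old MSCs and Sdc4 (32.8% of the syndecan level) above Sdc1 (32.0%) in rejuvenated old MSCs.

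**Figure D3:**
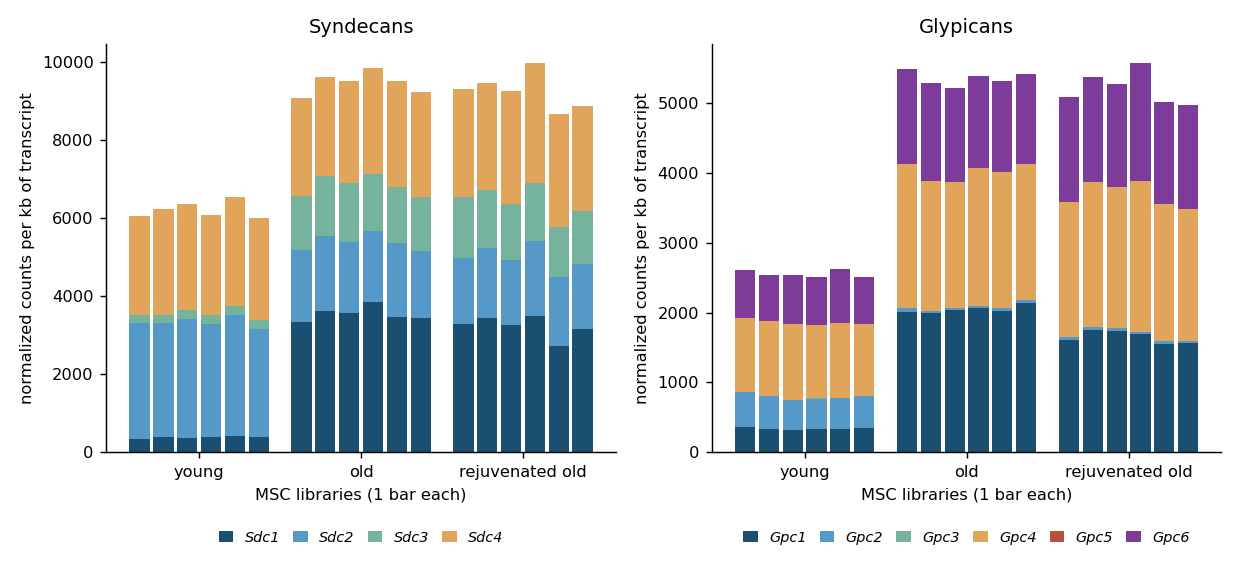
Normalized counts per kb of transcript, stacked by gene, for the syndecans (left) and glypicans (right), with 1 bar for each of the 18 libraries in the order young, old and rejuvenated old. Sdc2 and Sdc4 fill most of the young syndecan bars while Sdc1 is the largest block in old MSCs, and Gpc2 is visible as a block in young MSCs, at 17.9% of the glypican level.

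The genes that build, trim, release or work with these proteins were read from 8 lists of 91 genes, of which 80 were tested. Between young and old MSCs, 25 were higher and 52 lower in young MSCs, or 96.3% of those tested (85.7% of all genes), with a median log2 difference of -0.47 (-0.022 over all genes). Between rejuvenated old and old MSCs, 14 were higher and 36 lower in rejuvenated old MSCs, or 62.5% (41.6% of all genes), with a median of -0.13 (0.0081 over all genes). The counts per list that follow stand against these same shares of 85.7% and 41.6%. The lists were written by hand with earlier results of these data known. These shares therefore cannot show whether the pathway as a whole changed.

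Of 4 genes that edit heparan sulfate outside the cell, 3 were tested. All 3 differed between young and old MSCs (85.7% of all genes) and between rejuvenated old and old MSCs (41.6% of all genes). Hpse, the heparanase that cuts the chains, ran from 366 to 455 normalized counts in young MSCs (median 398), from 30.1 to 66.4 in old MSCs (median 51.1) and from 143 to 193 in rejuvenated old MSCs (median 161). The 3 groups were separate, with rejuvenated old between old and young MSCs. Hpse was 8.20-fold higher in young (log2 difference 3.05 ± 0.14 (SE), adjusted p = 1.4e-15, limma) and 3.30-fold higher in rejuvenated old than in old MSCs (log2 difference 1.74 ± 0.14 (SE), adjusted p = 1.24e-09, limma). Sulf1, which removes 6-O-sulfates, ran from 170.3 to 184 normalized counts in young MSCs (median 174), from 2323 to 2524 in old MSCs (median 2454) and from 1549 to 1981 in rejuvenated old MSCs (median 1866). It was 13.9-fold lower in young than in old MSCs (log2 difference -3.79 ± 0.047 (SE), adjusted p = 5.09e-26, limma) and fell by 24.8% in rejuvenated old MSCs (log2 difference -0.41 ± 0.047 (SE), adjusted p = 2.69e-07, limma). Sulf2, the second such enzyme, ran from 8196 to 9238 normalized counts in young MSCs (median 8753), from 17129 to 18929 in old MSCs (median 18388) and from 14041 to 14880 in rejuvenated old MSCs (median 14562). It was 2.08-fold lower in young (log2 difference -1.06 ± 0.032 (SE), adjusted p = 6.55e-19, limma) and fell by 20.0% in rejuvenated old MSCs (log2 difference -0.32 ± 0.032 (SE), adjusted p = 4.2e-08, limma). For all 3 genes the young and old groups did not overlap (73.9% of all genes), nor did the rejuvenated old and old groups (22% of all genes).

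Of 13 genes that start the chains and supply their sugars and sulfate, 12 were tested, and 1 was higher and 9 lower in young than in old MSCs. Papss2, which makes the sulfate donor, was lowest relative to old MSCs (means 179 ± 27.9 in young and 751 ± 28.2 in old MSCs, SD, n = 6, log2 difference -2.07), followed by the xylose kinase Fam20b (-1.35). Papss1, which encodes the same activity, was the one higher (0.21). Rejuvenated old MSCs had 3 higher and 3 lower. Ugdh, which makes the glucuronic acid donor, rose by 0.35 and Papss1 by 0.16, while Pxylp1, which removes the phosphate that Fam20b adds, fell by 0.58 and the transporter Slc35d1 by 0.29 on the log2 scale.

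Of 5 chain polymerases, all differed between young and old MSCs (85.7% of all genes), 2 higher and 3 lower in young. Ext1, one part of the polymerase, was lower in young (-0.60, adjusted p = 1.49e-12) while its partner Ext2 was higher (0.098, adjusted p = 0.00732, limma). Extl3 was lower by 0.47, and Extl1, at means of 14.6 and 8.15 normalized counts, was higher by 0.76. Of the 5, 3 were lower in rejuvenated old MSCs, with Ext1 at -0.21 (adjusted p = 0.000189) and Extl2 at -0.25 (adjusted p = 0.000158, limma). Ext2 was at -0.073 and did not pass the test (adjusted p = 0.0726). Of 16 genes for sulfotransferases and the epimerase, 9 were tested, and 4 were higher and 5 lower in young MSCs. Ndst1, the main N-deacetylase and N-sulfotransferase of most tissues, was lower in young (-0.67, adjusted p = 1.94e-08), and so was Hs3st1 (-2.40). The related Ndst4 had 362 reads over the 6 young libraries and 0 over the 6 old ones, at least 134-fold higher against a floor of 3 reads over the group, and Ndst3 had means of 30.9 and 7.29 normalized counts (2.03). Rejuvenated old MSCs had none of the 9 higher and 5 lower, led by Hs2st1 (-0.33) and Ndst1 (-0.32, adjusted p = 0.00164, limma).

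Of 12 genes for proteases that release ectodomains, their control and other enzymes at these proteoglycans, 11 were tested, and 3 were higher and 8 lower in young than in old MSCs. The gelatinase Mmp2 was 30.6-fold lower (means 1498 ± 79.4 in young and 45817 ± 1244 in old MSCs, SD, n = 6). Pcsk5 was close to absent in young MSCs, with 1 read over the 6 libraries against a mean of 32.0 normalized counts in old MSCs. Mmp9, which can shed syndecans, was 7.89-fold higher in young MSCs, and Furin was higher by 0.27 on the log2 scale, a direction that turned with chromosome shifts removed (-0.37). Against old MSCs, rejuvenated old MSCs had 2 higher and 6 lower. The protease gene Adamts1 ran from 3325 to 3587 in old and from 5979.8 to 7995 in rejuvenated old MSCs and rose 2.03-fold (log2 difference 1.02 ± 0.053 (SE), adjusted p = 1.22e-12, limma), and the metalloprotease inhibitor Timp3 rose 1.48-fold (log2 difference 0.56 ± 0.057 (SE), adjusted p = 6.72e-08, limma). The sheddase Adam10 ran from 886 to 1101 in old and from 366 to 703 in rejuvenated old MSCs and was 1.77-fold lower (log2 difference -0.85 ± 0.11 (SE), adjusted p = 1.57e-06, limma), and Mmp9 was lower by 0.50. Notum, a secreted enzyme that removes the lipid of Wnt proteins and binds glypicans, was low throughout, at means of 9.88, 16.1 and 11.5 in young, old and rejuvenated old MSCs, with log2 differences to old MSCs of -0.71 in young (adjusted p = 0.00925) and -0.43 in rejuvenated old MSCs (adjusted p = 0.168, limma).

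**Figure D4:**
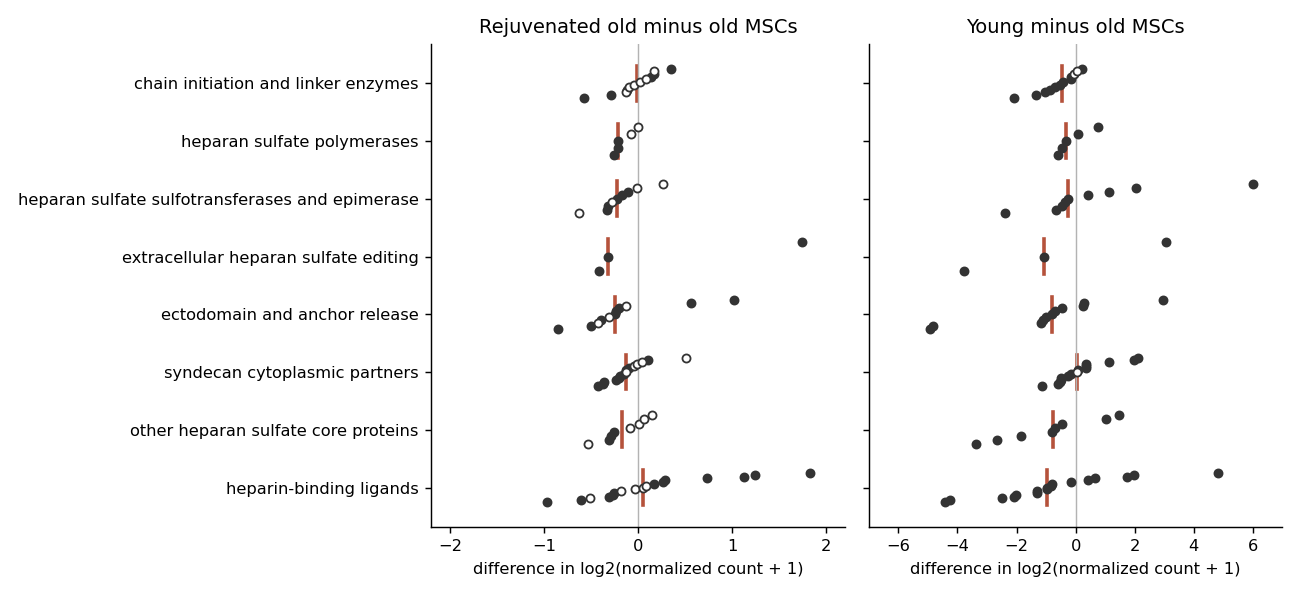
Differences in log2(normalized count + 1) for the 80 pathway genes tested, by list, for rejuvenated old minus old MSCs (left) and young minus old MSCs (right), with 1 point per gene, filled for an adjusted p under 0.05 by limma, and a bar at each list's median. In rejuvenated old MSCs the points far to the right include Bmp4 (1.83), Hpse (1.74), Rspo3 (1.25), Fgf10 (1.125) and Adamts1 (1.02), and the point at 6.00 on the right is Ndst4, whose size depends on the pseudocount since old MSCs had 0 reads.

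Of 15 cytoplasmic partners of syndecans, 7 were higher and 7 lower in young than in old MSCs. Sdcbp, which encodes the syndecan-binding PDZ protein syntenin, ran from 6272 to 6779 normalized counts in young MSCs (median 6521), from 4878 to 5265 in old MSCs (median 5165) and from 4369.6 to 5059 in rejuvenated old MSCs (median 4855). It was higher in young (log2 difference 0.36 ± 0.035 (SE), adjusted p = 2.61e-09, limma) and fell by 6.59% from old to rejuvenated old MSCs (log2 difference -0.10 ± 0.035 (SE), adjusted p = 0.0271, limma), where the groups overlapped. Its relative Sdcbp2 was higher in young MSCs (2.12), as was Ezr, which links membranes to actin (1.98), while the actin crosslinker Actn1 (-1.13) and the kinase Src (-0.60) were lower. Rejuvenated old MSCs had 1 higher, Gipc1 (0.11), and 9 lower, with Ezr (-0.42) and the calcineurin subunit Ppp3ca (-0.37) the lowest. Of 8 other proteins that can carry heparan sulfate, 2 were higher and 6 lower in young MSCs. Tgfbr3, or betaglycan, was higher (1.02, means 11628 ± 434 in young and 5729 ± 303 in old MSCs, SD, n = 6), as was Spock2 (1.46), and the largest falls were those of Srgn, a proteoglycan of blood cell granules (-3.39), and the collagen Col18a1 (-2.67). Against old MSCs, none was higher after rejuvenation and 3 were lower, including Cd44 (-0.30) and the perlecan gene Hspg2 (-0.29).

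Of 18 genes for ligands that bind heparan sulfate, 17 were tested. All 17 differed between young and old MSCs (85.7% of all genes), 5 higher and 12 lower in young. Cxcl12, the chemokine that holds blood stem cells in marrow, was 21.4-fold lower in young MSCs (log2 difference -4.42 ± 0.048 (SE), adjusted p = 8.53e-27, limma), and the hepatocyte growth factor gene Hgf was 18.8-fold lower (log2 difference -4.24 ± 0.093 (SE), adjusted p = 1.37e-21, limma). Fgf10 was 29.0-fold higher (log2 difference 4.83 ± 0.18 (SE), adjusted p = 2.4e-17, limma), and Hbegf, whose product binds heparin and the EGF receptor, 3.89-fold higher (log2 difference 1.96 ± 0.072 (SE), adjusted p = 3.11e-17, limma). These are RNA levels. For SDF1, the protein of Cxcl12, the study reported no significant difference in release between young and old MSCs in bioreactor tubes. Between rejuvenated old and old MSCs 7 were higher and 5 lower. Bmp4, a ligand that glypicans can modulate, ran from 2402 to 2689 in old and from 7356 to 10612 in rejuvenated old MSCs and rose 3.59-fold (log2 difference 1.83 ± 0.077 (SE), adjusted p = 3.3e-14, limma), while in young MSCs it ran from 551 to 675. Rspo3, an enhancer of Wnt signalling that binds syndecan-4, rose 2.40-fold (log2 difference 1.25 ± 0.19 (SE), adjusted p = 2.06e-05, limma), from a mean of 34.8 to 83.8 normalized counts, with young MSCs at 17.2. Fgf10 was also higher in rejuvenated old MSCs, by 1.125 on the log2 scale, with means of 15.7 in old, 34.8 in rejuvenated old and 455 in young MSCs. The matrix protein gene Tnc was 1.95-fold lower (log2 difference -0.97 ± 0.055 (SE), adjusted p = 3.82e-12, limma), and Pdgfb was lower by 0.61 (adjusted p = 0.00601).

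For each gene tested, the gene with the most similar pattern was taken as the one with the smallest root mean square (RMS) difference in log2(normalized count + 1), centred on the gene's own mean, over the 18 libraries. For Sdc1 it was Ccnd2 (cyclin D2, RMS difference 0.0777), with means of 3874 normalized counts (young), 36432 (old) and 30783 (rejuvenated old). For Sdc3 it was Col18a1 (0.0788), itself a heparan sulfate core protein gene, with means of 1124, 7151 and 7195. For Gpc2 it was Tnxb (0.186), with means of 1086, 113 and 98.5. The other 5 were Oaz2 for Sdc2 (0.0561), Vhl for Sdc4 (0.0370), Tbc1d2b for Gpc1 (0.0699), St3gal3 for Gpc4 (0.0504) and Jak1 for Gpc6 (0.0613). None of the 8 shared a chromosome with its partner. Each partner was the closest of 14353 genes, and whether any pair is linked in function or control was not tested.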

How the data were processed

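The 18 libraries of mouse MSCs, with 6 in each group, were made with a stranded mRNA kit per the labels. The authors aligned reads to mm10 with HISAT2, counted them with featureCounts and deposited DESeq2-normalized counts, a signal per gene in which each library's reads are divided by 1 size factor (the submitters' notes also name StringTie; versions and the annotation are not given in the sources used here). Multiplying back gave whole reads for 100% of values (tolerance 0.01 read), 22936251 to 29559194 per library. Counting intervals and floors cover counting error only. Chi-square over degrees of freedom was 2.60 to 23.7 over 45 replicate pairs, and all libraries were kept.

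Values were taken as log2(normalized count + 1), genes with a mean of at least 10 were kept (14353), and all 3 groups were fitted together with limma 3.58.1 (R 4.3.3, trended prior variance). P-values are two-sided and Benjamini-Hochberg adjusted over all genes tested, with a threshold of 0.05. P-values measure the spread between these libraries, which may be technical. Alternatives included other scalings, filters and pseudocounts, edgeR 4.0.16 and DESeq2 1.42.0 on the recovered reads, and leaving out each library. Replicate numbers did not pair the libraries. Levels per kb used GENCODE M21 transcripts, and promoter windows came from RefSeq (GRCm38.p6). Values were handled with Python 3.11.15, pandas 2.3.3, numpy 2.4.6 and matplotlib 3.10.9.

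Genes named were the 10 syndecans and glypicans, the 2 largest rises and 2 largest falls among called genes of each pathway list in rejuvenated old against old and young against old MSCs, always Sulf1, Sulf2, Hpse, Notum, Sdcbp, Ext1, Ext2 and Ndst1, the nearest gene of each pattern, and markers that are absent. The genes and lists were chosen with earlier results of these data known.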

Additional observations from a re-analysis of the deposited data

Results flagged for a closer look

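In 158 groups of 6 libraries, 10 held a lowest or highest library whose gap to the nearest other, as a share of the group's range, was above Dixon's 95% critical value, where chance flags about 1 group in 20. Among the syndecans and glypicans this was Gpc6 in rejuvenated old replicate 4, where it read 5862 normalized counts and the remaining 5 libraries 5102 to 5263.

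Of the pathway genes, rejuvenated old replicate 5 stood apart 3 times. It was lowest for Sulf1 (1549 against 1853 to 1981) and for Actn1 (15527 against 17419 to 18069), and highest for Sdcbp2 (63.3 against 23.2 to 35.8). This library also had the lowest Sdc1 value, 8633. Rejuvenated old replicate 1 was highest for Ezr (1117 against 840.02 to 931). Young replicate 3 was highest for Pxylp1 (1617 against 1483 to 1527) and lowest for Col18a1 (1037 against 1121 to 1165), and young replicate 5 was highest for Sulf1 (184 against 170.33 to 175). Old replicate 2 was highest for Slc35d1 (368 against 273 to 301) and for Rspo3 (54.2 against 27.9 to 33.6).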

How the results depend on the processing

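Each comparison was refitted under 33 alternatives, 18 of them leaving out 1 library. For the 8 genes in rejuvenated old against old MSCs, 245 of 264 alternative values kept direction and side of the threshold, 13 lost and 3 gained the call, and 3 changed sign, all for Sdc3, which was not called (0.000459 without old replicate 2, 0.0149 without rejuvenated old replicate 5 and 0.000436 without rejuvenated old replicate 6, with a range of -0.043 to 0.0149 without 1 library). In young against old MSCs 259 kept both, 3 lost and 2 gained the call. In young against rejuvenated old MSCs 256 kept both and 8 lost the call. The 2 higher genes in rejuvenated old MSCs became 1 at an adjusted p under 0.01 and 0 at an absolute log2 difference of at least 1 (2 to 2 without 1 library), and the 2 lower genes became 1 with no filter, 1 with a single prior variance, 1 at an adjusted p under 0.01 and 0 at a log2 difference of at least 1 (1 to 3 without 1 library). At that limit the 2 higher and 5 lower genes in young against old MSCs became 1 and 3, and the 2 higher in young against rejuvenated old MSCs became 1. The 14 higher and 36 lower pathway genes in rejuvenated old MSCs became 5 and 0 (14 to 15 and 32 to 37 without 1 library), and the 25 and 52 in young MSCs became 13 and 22 (23 to 25 and 52 to 52). Of the named pathway genes, 847 of 888 and 1034 of 1047 values kept both, and Furin changed sign relative to its chromosome (-0.37).

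With the replicate number as a block, 2 and 2 members were called in rejuvenated old against old, 2 and 5 in young against old and 2 and 6 in young against rejuvenated old MSCs, with 14 and 35 pathway genes in the first and 24 and 52 in the second. Deviations of libraries with the same number correlated at -0.15 to 0.074 over 18 pairs, and no library correlated best with its own number, so the numbers were not read as pairs. Per kb of all exons joined, an alternative chosen after seeing the data, shares moved to 49.0% (Sdc2, young), 34.4% (Sdc1, old), 32.0% (Sdc1, rejuvenated old), 53.2% and 47.9% (Gpc4, young and rejuvenated old). Depth limits Gpc3 and Gpc5, whose levels could not be compared. Age, Y-linked transcripts, chromosome-wide shifts and marker levels of other cell types cannot be told apart between young and old MSCs. How cells within a culture differ was not measured.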
